A study of Mus musculus with 8 samples.

Results

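Oxidative phosphorylation is carried out by 5 protein complexes of the inner mitochondrial membrane, and the genes described here encode their subunits. They were taken by symbol from the authors' deposited table of cluster markers as every gene starting with mt-, Nduf, Sdha, Sdhb, Sdhc, Sdhd, Uqcr or Atp5, or with Cox followed by a digit from 4 to 8. The rule found 104 of the 9229 genes of the table, 13 encoded by mitochondrial DNA and 91 by nuclear chromosomes. The mitochondrial members were all 13 protein-coding genes of that genome. Of 100 nuclear protein-coding genes that fit the rule in the RefSeq gene table for mouse, 91 were in the deposited table, and Cox6a2, Cox7b2, Cox8b, Cox8c, Ndufaf6, Ndufb4b, Ndufb4c, Sdhaf1 and Sdhaf3 were not. The 91 comprised 39 subunits of complex I, 4 of complex II, 8 of complex III, 13 of complex IV, 17 of complex V, and 10 assembly factors or associated proteins caught by the same prefixes (9 factors with symbols starting Ndufaf or Sdhaf, and Cox7a2l). Ndufa4 was counted in complex I by its symbol, although its protein has since been assigned to complex IV.

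The cells came from dorsal root ganglia, the clusters of sensory neurons beside the spinal cord, of C57BL/6 mice 21 to 30 days old. Ganglia of 4 mice were pooled. Living cells were exposed to an antibody against the proteasome subunit β5 and sorted by flow cytometry into 4 NMP-positive and 4 NMP-negative samples, where NMP is the neuronal membrane proteasome, a proteasome exposed at the surface of neurons. No other genotype or treatment was given, and both populations went through the same dissociation and antibody steps. The sample descriptions name 4 lanes of 1 library for each population, so the 4 samples of a population are lanes and not replicates. Droplet libraries counted 3′ ends of transcripts. The deposited table sets each of 20 clusters against all other cells and has no sample column, so NMP-positive and NMP-negative cells could not be compared. No value below has a replicate, and the number of cells and the depth per cell are unknown.

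Complex I takes electrons from NADH and complex II from succinate, complex III passes them to cytochrome c, and complex IV passes them to oxygen. Complexes I, III and IV pump protons, and complex V, the ATP synthase, uses the gradient to make ATP. Complexes I, III, IV and V are built from products of both genomes, while complex II is wholly nuclear. The mitochondrial messages are cut from long transcripts made inside the organelle, and the nuclear messages are made in the nucleus and translated in the cytosol. Sensory neurons carry long axons and are known for a high demand for ATP.

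Promoters of the nuclear members are described first, and their relation to the calls below was not tested. RefSeq promoter windows of 300 bases (250 before to 50 after the start, GRCm38.p6) were available for 77 of the 91 nuclear members. A set of 4 short motifs known from promoters of respiratory genes were searched on both strands, written GCGCA, any base and GCGC for NRF-1, CCGGAAG for ETS factors such as GABP, AAGATGGC for YY1 and TCAAGGTCA for the estrogen-related receptors. The NRF-1 letters were in 19 of the 77 windows (24.7%), against 4.8% of the windows of all 27025 genes and 9.4% of those of 7147 genes of the table. The ETS letters were also in 19 windows (24.7%), against 9.1% of all windows and 14.9% of those of table genes. The YY1 letters were in 10 windows (13.0%), against 2.9% and 3.8%, and the receptor letters in 2 (2.6%), against 0.4% and 0.3%. At least 1 of the motifs was in 42 of 77 windows (54.5%), against 15.6% of all windows and 25.4% of those of table genes. A match describes letters only, and overlaps between motifs were not removed.

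A choice of 3 windows shows the range among complex I and IV members described below, each as the 250 bases before the start, on the minus strand, 5′ to 3′, with motif matches in capitals. Cox6a1, a complex IV subunit (chr5:115348959-115349208), held NRF-1 letters at 2 positions and ETS letters on the opposite strand. Ndufs5, a complex I subunit (chr4:123718187-123718436), held 1 NRF-1 match in these 250 bases. Ndufa4 (chr6:11907451-11907700), which had the largest spread in level of any nuclear member listed in more than 1 cluster, held no match in them.
Cox6a1: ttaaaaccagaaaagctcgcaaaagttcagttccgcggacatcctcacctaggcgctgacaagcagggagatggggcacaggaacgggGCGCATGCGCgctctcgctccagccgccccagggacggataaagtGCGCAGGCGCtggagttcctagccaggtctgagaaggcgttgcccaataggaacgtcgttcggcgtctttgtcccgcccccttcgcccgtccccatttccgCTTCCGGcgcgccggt
Ndufs5: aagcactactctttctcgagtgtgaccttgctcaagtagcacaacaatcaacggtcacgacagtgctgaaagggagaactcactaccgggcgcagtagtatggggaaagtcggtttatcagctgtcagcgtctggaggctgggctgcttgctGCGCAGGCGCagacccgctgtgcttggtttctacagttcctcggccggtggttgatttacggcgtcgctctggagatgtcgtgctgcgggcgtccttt
Ndufa4: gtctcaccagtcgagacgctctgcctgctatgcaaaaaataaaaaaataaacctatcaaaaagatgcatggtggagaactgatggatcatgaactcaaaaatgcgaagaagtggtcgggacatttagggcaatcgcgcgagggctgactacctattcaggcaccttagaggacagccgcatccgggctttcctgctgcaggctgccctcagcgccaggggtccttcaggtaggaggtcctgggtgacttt

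The clusters carry the authors' names, and fall into 10 named neuron clusters, 3 named Low.UMI and 7 named Unknown. The name Low.UMI refers to unique molecular identifiers, the tags that count transcripts, and the suffix 488p of 2 names is not explained in the table. Shares of all cells, solved from the deposited detection fractions, came to 40.8% for the named neuron clusters, 28.6% for Low.UMI and 30.7% for Unknown. All samples are labelled as neurons, but 8 of 8 neuron markers were lower in each Unknown cluster. There, 8 of 8 endothelial markers were higher in Unknown.1, 8 of 8 satellite glia markers in Unknown.2, all 6 mural markers of the table in Unknown.3, 8 of 8 Schwann cell markers in Unknown.4, 8 of 8 fibroblast markers in Unknown.5 and in Unknown.6, and 8 of 8 macrophage markers in Unknown.488p. Satellite glia markers were also detected in neuron clusters, the most frequent in 98.1% of LTMR cells, with none of the 8 higher in any named neuron cluster. A gene is called higher or lower in a cluster where the authors' adjusted p was under 0.05. Those p-values take cells as units and the clusters were defined from the same expression values, so they serve as a filter only. Fold changes below are the authors' log2 fold changes of a cluster against all other cells. A gene not listed for a cluster may be close to the other cells or rare, since the table holds no absolute log2 fold change under 0.25 and no gene found in fewer than 10% of cells on both sides.

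The mitochondrial and the nuclear members differed in which clusters they were high or low in. Mitochondrial members were higher in 82 of 130 pairs of member and named neuron cluster (63.1%) and lower in 11 (8.46%), against 10.9% and 6.72% of pairs over all genes. In the Low.UMI clusters, none of 39 pairs was higher and 37 were lower (94.9%), against 20.6% lower over all genes. In the same Low.UMI clusters nuclear members were higher in 80 of 273 pairs (29.3%) and lower in 1 (0.366%), against 10.9% and 20.6%. In the Unknown clusters, nuclear members were lower in 337 of 637 pairs (52.9%) and higher in 21 (3.3%), against 27.1% and 10.2% over all genes. There, mitochondrial members were higher in 37 of 91 pairs (40.7%) and lower in 7 (7.69%). In the named neuron clusters nuclear members were higher in 118 of 910 pairs (13.0%), near the 10.9% of all genes, and lower in 7 (0.769%).

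**Figure D1:**
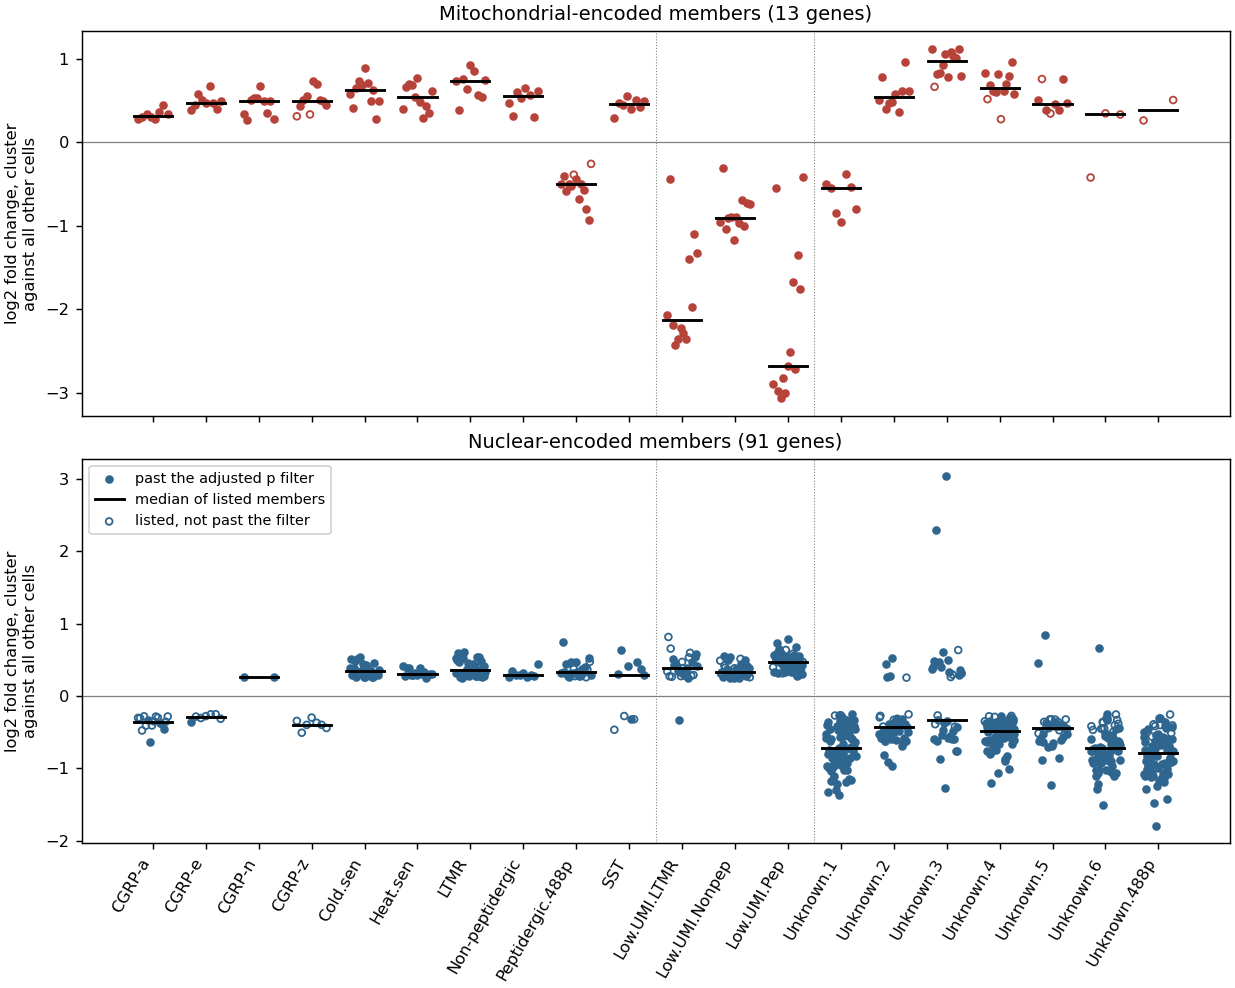
Each point is 1 member in 1 cluster, with the authors' log2 fold change against all other cells on the vertical axis, mitochondrial members above and nuclear members below. Filled points passed the adjusted p filter, open points were listed without passing it, and the black line is the median of listed members, which ran down to -2.68 for mitochondrial members in Low.UMI.Pep and to -0.79 for nuclear members in Unknown.488p.

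The mitochondrial members were lower in all 3 Low.UMI clusters, with the medians farthest from 0 in Low.UMI.Pep and Low.UMI.LTMR. In Low.UMI.Pep all 13 mitochondrial members were lower, beside 20.7% of all genes, and their median log2 fold change in the authors' deposited table was -2.68. In Low.UMI.LTMR 12 were lower, beside 20.1% of all genes, with a median of -2.13. In Low.UMI.Nonpep 12 were lower, beside 21.0% of all genes, with a median of -0.90. The one member missing from the last 2 lists was mt-Nd6, and over all genes listed for these 3 clusters the medians lay between -0.32 and -0.29.

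mt-Co2 encodes a catalytic subunit of complex IV that receives electrons from cytochrome c. Its deposited log2 fold change was -3.06 in Low.UMI.Pep, -2.42 in Low.UMI.LTMR and -0.90 in Low.UMI.Nonpep. The authors' deposited table gave mt-Co2 in 29.7% of Low.UMI.Pep cells against 90.3% of other cells, in 37.0% of Low.UMI.LTMR cells against 83.1%, and in 56.0% of Low.UMI.Nonpep cells against 85.1%. Of the 3 clusters, Low.UMI.Nonpep lay nearest to the other cells. mt-Cytb, the only mitochondrial-encoded subunit of complex III, followed the same order at -2.99, -2.22 and -1.17 in the deposited table. mt-Co1, the subunit that reduces oxygen, stood at -2.98, -2.19 and -1.03 in the same order of clusters. mt-Atp6, which forms part of the proton channel of complex V, stood at -2.89, -2.07 and -0.96. mt-Nd3 and mt-Nd4l, short genes of complex I, lay nearer to 0 in the deposited table, with mt-Nd3 at -1.68, -1.40 and -0.69 and mt-Nd4l at -1.35, -1.10 and -0.73. The fold changes hold a pseudocount of 1, which keeps those of genes at low levels near 0.

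All 37 lower calls came with a smaller share of cells in which the gene was detected. Detection in Low.UMI.Pep was 40.2% of cells for mt-Atp6, 4.1% for mt-Nd5 and 3.3% for mt-Nd3. mt-Atp8 was found in 1.3% of Low.UMI.Pep cells against 49.6% of other cells, and mt-Nd6 in 1.1% against 36.6%. The median share over listed mitochondrial members was 18.1% of Low.UMI.Pep cells against 86.2% of other cells, 23.7% of Low.UMI.LTMR cells against 78.3%, and 39.8% of Low.UMI.Nonpep cells against 81.5%. Transcripts of other kinds moved with this result. Of 8 long RNAs retained in the nucleus, 6 were lower in each Low.UMI cluster, and Malat1 stood at -4.20 in Low.UMI.Pep, -4.20 in Low.UMI.LTMR and -3.81 in Low.UMI.Nonpep in the authors' deposited table. All 11 immediate early and stress genes of a fixed list were lower in each of them as well. Their part in the mitochondrial result was not tested.

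**Figure D2:**
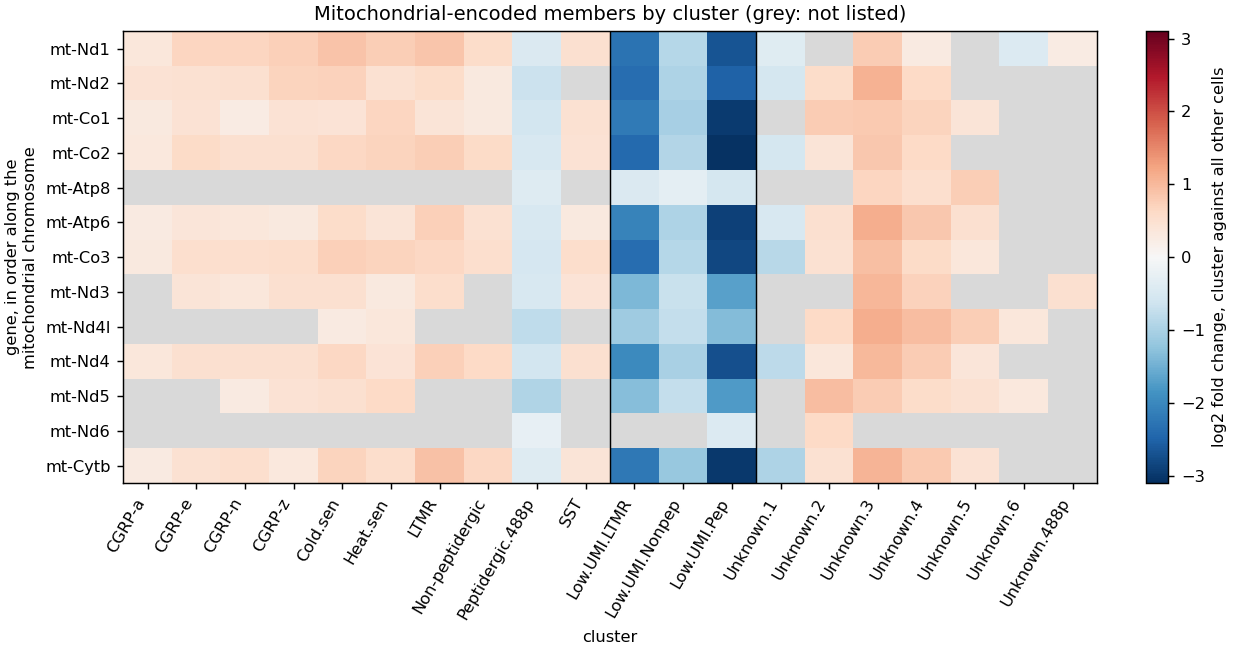
The 13 mitochondrial genes are in rows in their order along the mitochondrial chromosome, the 20 clusters are in columns, and the colour is the authors' log2 fold change against all other cells, with grey for a gene not listed. The Low.UMI columns hold the lowest values, down to -3.06 for mt-Co2, and Unknown.3 the highest, up to 1.12 for mt-Atp6.

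The mitochondrial genes differed in how often they were listed. mt-Nd4, a proton-pumping subunit of complex I, was called in 18 clusters, 13 higher and 5 lower. mt-Atp8, the small partner of mt-Atp6, was listed in 7 clusters and mt-Nd6 in 3. mt-Nd6 is the only member on the minus strand (chrM:13552-14070, GRCm38, GENCODE M21) and shares 14 bases with mt-Nd5. mt-Atp8 (chrM:7766-7969) shares 43 bases with mt-Atp6, and mt-Nd4l shares 7 with mt-Nd4. How reads in these overlaps were counted is not stated, so the split within each pair is uncertain.

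Among the named neuron clusters, 9 of 10 had mitochondrial members higher and none lower, and Peptidergic.488p had the opposite. In Cold.sen, whose leading genes included the cold channel Trpm8, 11 of 13 were higher, beside 11.0% of all genes, with a median log2 fold change of 0.63. In Heat.sen 11 were higher, beside 12.6% of all genes, with a median of 0.54. LTMR, named for low-threshold mechanoreceptors, had 9 higher, beside 12.5% of all genes, and the highest median of these clusters, 0.73. CGRP-n had 10 higher, beside 9.61% of all genes, and CGRP-e had 9, beside 9.77%. Another 4 clusters had 8 each, which were CGRP-a beside 12.5% of all genes, CGRP-z beside 11.3%, Non-peptidergic beside 9.86% and SST beside 12.5%. mt-Co1, mt-Co2, mt-Co3, mt-Nd1 and mt-Nd4 were higher in all 9 clusters.

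mt-Nd1, a core complex I subunit near the quinone site, led in 5 of these clusters in the authors' deposited table, from 0.67 in CGRP-e to 0.89 in Cold.sen. mt-Cytb led in LTMR at 0.92 and in Non-peptidergic at 0.65. Every higher call of the 9 clusters came with detection in a larger share of cells than elsewhere. CGRP-a showed the smallest median, 0.32, with detection in a median of 100% of its cells against 79.0% of other cells.

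In Peptidergic.488p all 13 mitochondrial members were listed with negative fold changes and 11 were lower, beside 13.8% of all genes. Their median in the authors' deposited table was -0.50. mt-Nd5 was lowest at -0.93, followed by mt-Nd4l at -0.80 and mt-Nd2 at -0.68. mt-Cytb at -0.39 and mt-Nd6 at -0.26 did not pass the filter. The median detection of the 13 was 58.4% of its cells against 77.1% of other cells. In this cluster 9 of the 11 stress genes were also lower, and 3 of the 8 nuclear-retained RNAs.

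Because the Low.UMI clusters held 28.6% of cells and sat far below the rest in mitochondrial transcripts, every other cluster was also set against other cells outside them. This comparison was added after the data were seen and covers the 12 members listed in all 3 Low.UMI clusters. It follows by algebra from the deposited fold changes and cluster shares, with the pseudocount of 1 that the table bears out. The LTMR median then was 0.37, against 0.73 with all other cells, and Cold.sen came to 0.27, against 0.63. In both clusters every listed member stayed above 0, 9 of 9 and 11 of 11. These counts hold only members already listed with positive fold changes there, since members not listed had no value. Heat.sen came to 0.17 and Non-peptidergic to 0.19. The medians of CGRP-z at 0.15, CGRP-n at 0.14, CGRP-e at 0.12 and SST at 0.11 were nearer to 0. In CGRP-a the direction turned, with a median of -0.06 and 1 of 8 members above 0. Peptidergic.488p moved further down, to -0.87, with 0 of 12 members above 0. These 12 were already listed there with negative fold changes. Leaving out cells low in these transcripts lowers every value, so both the shift and the count were set in advance. mt-Nd1 came to 0.54 in Cold.sen and 0.50 in LTMR on this scale, and to -0.01 in CGRP-a.

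**Figure D3:**
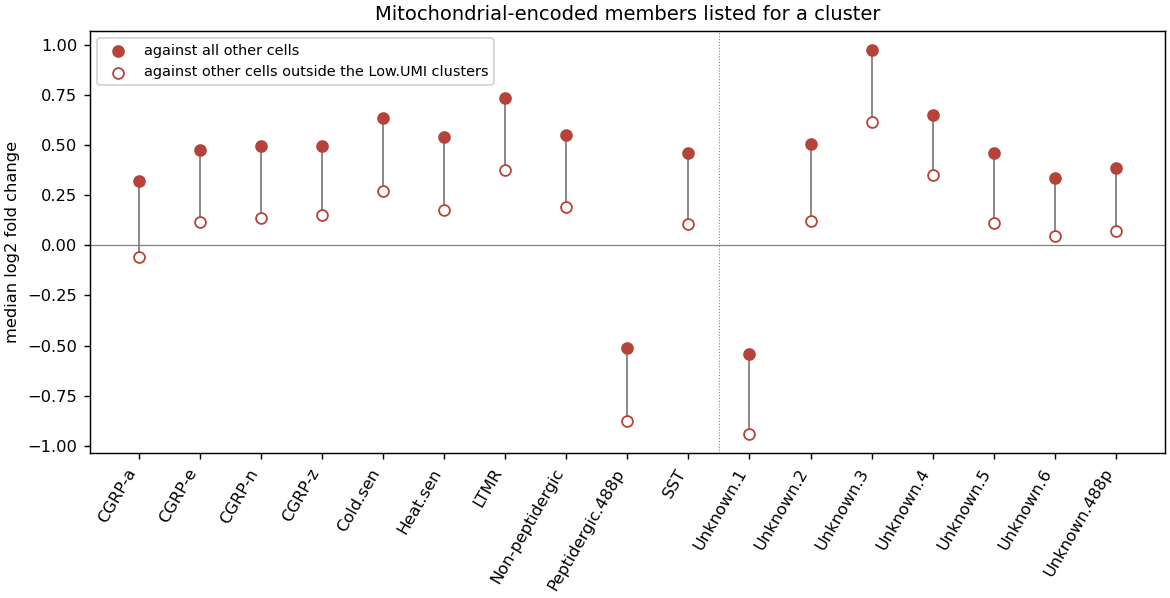
Median log2 fold change of mitochondrial members in the 17 clusters outside Low.UMI, against all other cells (filled) and against other cells outside the Low.UMI clusters (open). Open points lie below filled ones throughout, at -0.06 for CGRP-a and 0.62 for Unknown.3.

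The Unknown clusters spread over a wide range of mitochondrial levels. Unknown.3, led by the contractile genes Acta2, Tagln and Tpm2, had 11 of 13 members higher, beside 8.05% of all genes, and the highest median of any cluster, 0.97 in the authors' deposited table. mt-Atp6 stood there at 1.12, mt-Nd4l at 1.12 and mt-Nd2 at 1.09. Against other cells outside Low.UMI its median was 0.62, with all 12 members that could be computed at 0.25 or more. These 12 were the members listed there, all at 0.66 or more in the deposited table, so that count was largely set by the listing. Unknown.4 had 10 higher, beside 5.21% of all genes, with a median of 0.65 and of 0.35 without Low.UMI cells. Unknown.2 had 10 higher, beside 13.0% of all genes, and was led by mt-Nd5 at 0.96. Unknown.5 had 6 higher, beside 9.67% of all genes. In Unknown.6, where 7.39% of all genes were higher, and in Unknown.488p, where 9.91% were, no mitochondrial member passed the filter in either direction, and 3 and 2 members were listed. The median of Unknown.5 without Low.UMI cells was 0.11, and that of Unknown.2 was 0.12.

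Unknown.1, the cluster with endothelial markers, ran the other way. All 7 members listed there were lower, beside 28.8% of all genes, with a median of -0.54 in the authors' deposited table and of -0.94 without Low.UMI cells. mt-Cytb was lowest at -0.95, then mt-Co3 at -0.85 and mt-Nd4 at -0.80. All 7 were nevertheless detected in a larger share of its cells than elsewhere, at a median of 97.2% against 78.2%. For mt-Co2 the detection was 99.6% of Unknown.1 cells against 80.0% of other cells, at a log2 fold change of -0.54. Fold change and detection thus pointed in opposite directions in Unknown.1 and in the same direction in the Low.UMI clusters.

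On the level of each gene against the mean of all cells, the widest spans were those of mitochondrial members. These levels hold the pseudocount of 1, which narrows the span of genes at low levels, and a span covers listed clusters only. mt-Cytb differed by 3.80 on the log2 scale between its highest and lowest of 18 clusters, mt-Atp6 by 3.76 and mt-Co2 by 3.67. Mitochondrial members listed in fewer clusters spanned less, with mt-Nd4l at 2.27, mt-Atp8 at 1.22 and mt-Nd6 at 0.91. Among nuclear members the widest were Ndufa4 at 2.42 over 14 clusters, Ndufa11 at 1.99, Ndufs5 at 1.97 and Cox5a at 1.90. The median mitochondrial level minus the median nuclear level of listed members was -2.89 in Low.UMI.Pep, -2.47 in Low.UMI.LTMR, -1.11 in Low.UMI.Nonpep and -0.81 in Peptidergic.488p. It was positive in the 16 other clusters, from 0.16 in SST to 1.25 in Unknown.3. The Unknown.3 value rests on a nuclear median that turned positive with structural subunits alone. CGRP-n, CGRP-e and CGRP-z had 2 to 7 nuclear members listed. Unknown.6 and Unknown.488p had only 3 and 2 mitochondrial members listed, none of them past the filter. With unlisted members counted as 0, the mitochondrial median of each of these 2 clusters was 0.

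Nuclear members were higher in a group of sensory clusters led by LTMR. There 41 of 91 were higher and none lower, beside 12.5% and 8.46% of all genes, with a median log2 fold change of 0.35 in the authors' deposited table. They came from every complex, with 14 of complex I, 2 of complex II, 4 of complex III, 9 of complex IV and 11 of complex V, plus Cox7a2l. Cox5a, a complex IV subunit on the matrix side, was highest at 0.61. Atp5g1, one of 3 genes for the same ring subunit of complex V, stood at 0.60, and Ndufb8, an accessory subunit of complex I, at 0.54.

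Cold.sen had 28 nuclear members higher and none lower, beside 11.0% and 5.44% of all genes. Cox5b led it at 0.54 in the authors' deposited table, and Atp5b, the catalytic subunit of complex V, stood at 0.51. Heat.sen had 15 higher and none lower, beside 12.6% and 1.18% of all genes, led by Atp5a1, the partner of Atp5b in the catalytic head, at 0.41. Sdha, the subunit of complex II that oxidizes succinate, was higher in Heat.sen alone, at 0.30 and in 91.8% of cells against 53.0%. Non-peptidergic had 9 higher and none lower, beside 9.86% and 9.71% of all genes, a share near the background, led by Ndufv1, which binds NADH, at 0.45. SST had 6 higher and 1 lower, beside 12.5% and 10.7% of all genes, with Cox5a at 0.64 and Cox7c at -0.31.

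The clusters named for CGRP, a peptide of pain-sensing neurons, had few nuclear members listed. CGRP-n had 2 higher and none lower, beside 9.61% and 4.32% of all genes, and these were Cox6c at 0.26 and Ndufb8 at 0.26. In CGRP-z none passed in either direction, beside 11.3% higher and 0.715% lower over all genes. CGRP-a had none higher and 5 lower, beside 12.5% and 7.26% of all genes, which were Cox5a at -0.63, Ndufa13 at -0.46, Cox8a at -0.39, Cox7c at -0.38 and Cox4i1 at -0.33. CGRP-e had none higher and 1 lower, Atp5b at -0.36, beside 9.77% and 5.65% of all genes. All 6 lower calls of CGRP-a and CGRP-e came with detection in a larger share of cells, such as Cox5a in 98.6% of CGRP-a cells against 75.0% of other cells. Beside them, cytosolic ribosomal proteins had 38 of 82 lower in CGRP-a, 39 in CGRP-e and 37 in CGRP-n. The 5 lower nuclear calls in CGRP-a were 5.49% of the 91 members, under the share of all genes.

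Peptidergic.488p combined lower mitochondrial members with higher nuclear ones. It had 17 nuclear members higher and none lower, beside 7.05% and 13.8% of all genes, while the median over all genes listed for it was -0.32. Atp5mpl, a small subunit of complex V, was highest at 0.75 in the authors' deposited table, in 82.7% of its cells against 74.0% of other cells. Ndufv3, an accessory subunit of the NADH-oxidizing arm, stood at 0.53, Ndufa4 at 0.47 and Cox6a1 at 0.45. All 17 were detected in a larger share of cells than elsewhere.

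Nuclear members were also higher in the Low.UMI clusters, but with detection going the other way. Low.UMI.Pep had 38 higher and none lower, beside 10.8% and 20.7% of all genes, and a median of 0.47 in the authors' deposited table. Low.UMI.Nonpep had 28 higher and none lower, beside 10.9% and 21.0%, with a median of 0.33. Low.UMI.LTMR had 14 higher and 1 lower, beside 10.9% and 20.1%, with a median of 0.39, and the lower one was the assembly factor Ndufaf2 at -0.34. All 80 higher calls were for genes found in a smaller share of these cells than of other cells. Ndufa4, highest in Low.UMI.Pep at 0.79, Cox5a at 0.64 and Ndufs5 at 0.68 showed this, with Cox5a in 63.6% of Low.UMI.Pep cells against 78.9% of other cells and Ndufs5 in 59.9% against 77.9%.

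Complex I, the largest set with 39 subunits, supplied most of the higher calls in Low.UMI.Nonpep, 19 of 28. None of the 17 subunits of complex V was higher there. In Low.UMI.Pep 18 of 39 subunits of complex I, 8 of 13 of complex IV and 7 of 17 of complex V were higher. The share was thus largest for complex IV. Cox8a, Ndufa10, Ndufa4, Ndufa9, Ndufs4 and Uqcrfs1, the iron-sulfur subunit of complex III, were higher in all 3 Low.UMI clusters. Uqcrc2, a core subunit of complex III, was highest among those past the filter in Low.UMI.LTMR at 0.58, and Cox5b in Low.UMI.Nonpep at 0.56. Cox5a at 0.65 and Atp5mpl at 0.82 in Low.UMI.LTMR were larger in the deposited table but did not pass the filter. The lower mitochondrial and nuclear-retained RNAs of the same clusters moved with these values, and their part was not tested.

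**Figure D4:**
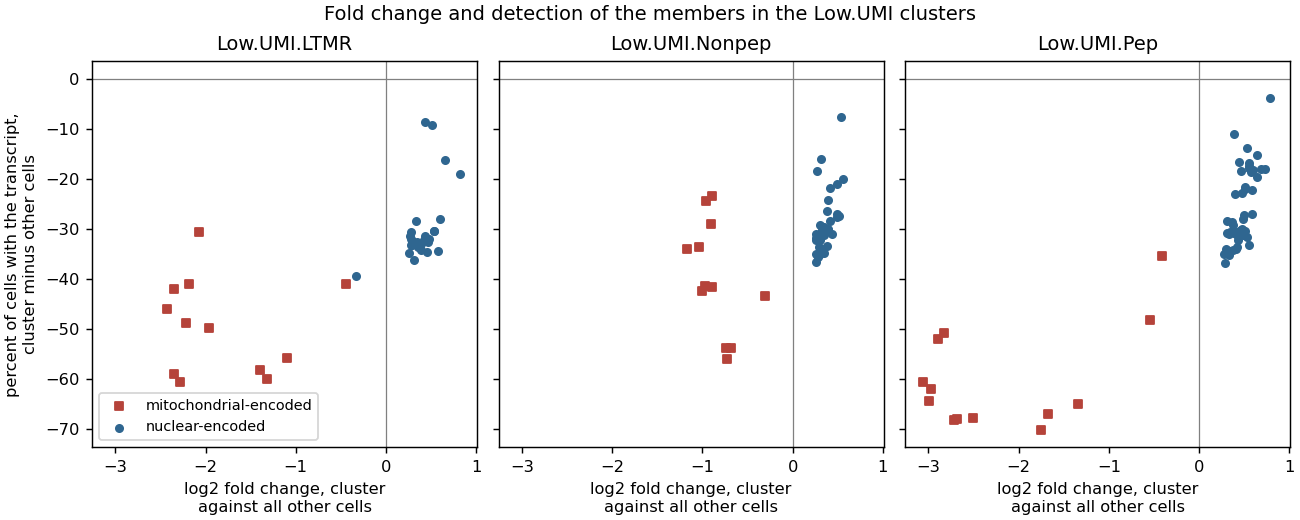
For each listed member in the 3 Low.UMI clusters, the authors' log2 fold change is on the horizontal axis and the share of cells with the transcript, cluster minus other cells in percentage points, on the vertical axis, with squares for mitochondrial and circles for nuclear members. Both sets lie below 0 in detection, with mitochondrial members left of 0 in fold change and the 80 higher nuclear calls right of it.

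Since 337 of 637 pairs of nuclear member and Unknown cluster were lower, the nuclear values were also computed against other cells outside them, for the 14 genes listed in all 7, another comparison added after the data were seen. The median in LTMR was then 0.16, against 0.44 for the same 11 genes with all other cells, and all 11 stayed above 0. These 11 were already listed as higher in LTMR, so that count was largely set by the listing. The 14 genes were mostly lower in the Unknown clusters, so the downward shift follows from how they were chosen. Low.UMI.Pep came to 0.32 over 10 genes, against 0.58, and Low.UMI.Nonpep to 0.24 over 6 genes, against 0.49. Low.UMI.LTMR came to 0.21 over 7 genes, against 0.43. Peptidergic.488p came to 0.15 over 9 genes, against 0.37. SST came to 0.20 over 4 genes, against 0.40. Cold.sen at 0.10 over 4 genes, Non-peptidergic at 0.08 over 7, Heat.sen at 0.06 over 3 and the 1 gene of CGRP-n at 0.0 were nearer to 0. The 3 genes listed in CGRP-a came to -0.75, and the 1 gene each of CGRP-z and CGRP-e to -0.72 and -0.47. With the Low.UMI clusters left out instead, the nuclear values moved up, for the 8 genes listed in all 3. These 8 were mostly higher in the Low.UMI clusters, so the upward shift follows from how they were chosen. LTMR then came to 0.56 over 4 genes, against 0.37, Non-peptidergic to 0.52 over 3, against 0.28, and Peptidergic.488p to 0.47 over 3, against 0.28. CGRP-z came to -0.16 over 2 genes, against -0.38, and Unknown.1 to -0.65 over 8, against -0.82.

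Nuclear members were lower more often than all genes in 5 of the 7 Unknown clusters, while Unknown.3 and Unknown.5 had lower shares under those of all genes. Of the 91, 83 were lower in at least 1 Unknown cluster, 57 in at least 4, and 8 in all 7. Unknown.1 had 75 lower and none higher, beside 28.8% and 18.0% of all genes, with a median of -0.72 in the authors' deposited table. Unknown.488p had 70 lower and none higher, beside 33.0% and 9.91%, with a median of -0.79. Unknown.4 had 66 lower and none higher, beside 26.4% and 5.21%, with a median of -0.48. Unknown.6 had 63 lower and 1 higher, beside 25.5% and 7.39%, with a median of -0.72. The medians over all genes listed for these clusters were closer to 0, at -0.31 in Unknown.1 and -0.40 in Unknown.488p. The same 49 genes were lower in all 4 of these clusters. Other lists moved too, though not alike in every Unknown cluster. Of the 11 stress genes, 9 were higher in each of Unknown.1, Unknown.2 and Unknown.3, and 7 in Unknown.6. In Unknown.4, 4 were higher and 1 lower, in Unknown.488p 3 higher and 2 lower, and in Unknown.5 1 higher and 2 lower. Of the 8 nuclear-retained RNAs, 4 were lower in each of Unknown.1, Unknown.2 and Unknown.488p, while 2, 2 and 1 were higher. Their part in the nuclear and mitochondrial values of the Unknown clusters was not tested.

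In Unknown.1 the lower calls took in 36 of 39 complex I subunits, 3 of 4 of complex II, 7 of 8 of complex III, 10 of 13 of complex IV and 16 of 17 of complex V. Ndufa4 was lowest at -1.36 and Sdha nearest to 0 among those past the filter at -0.25. In Unknown.488p the counts were 34, 1, 6, 10 and 15 in the same order of complexes. Ndufa4 was lower in all 7 Unknown clusters in the authors' deposited table, at -1.36, -0.96, -1.27, -1.06, -1.23 and -1.50 in Unknown.1 to Unknown.6 and at -1.79 in Unknown.488p. The others lower in all 7 were Cox5a, Ndufa10, Ndufb8, Ndufs5, Ndufv3 and the assembly factors Ndufaf3 and Sdhaf4. Cox5a ranged there from -1.28 in Unknown.6 to -0.62 in Unknown.3, and was found in 43.3% of Unknown.6 cells against 77.3% of other cells. Cox6a1 was lower in 6 of the 7, from -1.04 in Unknown.6 to -0.62 in Unknown.2, and was not listed in Unknown.3.

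Both directions were called in 3 further Unknown clusters. Unknown.2 had 31 lower and 4 higher, beside 27.4% and 13.0% of all genes. Unknown.5 had 16 lower and 2 higher, beside 20.4% and 9.67%. Unknown.3 had 16 lower and 14 higher, beside 28.4% and 8.05%. Cox6c, a small complex IV subunit, showed opposite calls, at 0.66 in Unknown.6 and 0.47 in Unknown.3 but -1.12 in Unknown.488p in the authors' deposited table. Ndufa13 was higher in Unknown.2 at 0.52 and in Unknown.3 at 0.61, and lower in Unknown.1 at -0.81.

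Unknown.3 held the highest positive fold changes of the members, in 2 subunit isoforms. Ndufa4l2, a paralog of Ndufa4 known to be induced by low oxygen, stood at 3.03 in the authors' deposited table, in 78.9% of Unknown.3 cells against 1.0% of other cells. Cox4i2, a paralog of Cox4i1 known from lung and oxygen sensing, stood at 2.30, in 64.0% against 5.4%. Neither was listed in any other cluster. Ndufa4 itself was lower at -1.27, in 82.4% against 90.9% of cells, while Cox4i1 was not listed there. Of 8 nuclear complex III members, 4 were listed in this cluster and all 4 were higher, Uqcr11 at 0.36, Uqcrb at 0.32, Uqcrh at 0.32 and Uqcr10 at 0.29. In complex V, Atp5e stood at 0.48, Atp5b at 0.39 and Atp5a1 at 0.38. All 4 listed assembly factors or associated proteins were lower, among them Cox7a2l, which helps join complexes III and IV, at -0.86. Ndufv3 at -0.76 and Cox5a at -0.62 were further lower members. The median of listed nuclear members was -0.34, and 0.26 over structural subunits alone, so its sign turned with the assembly factors and Cox7a2l left out.

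**Figure D5:**
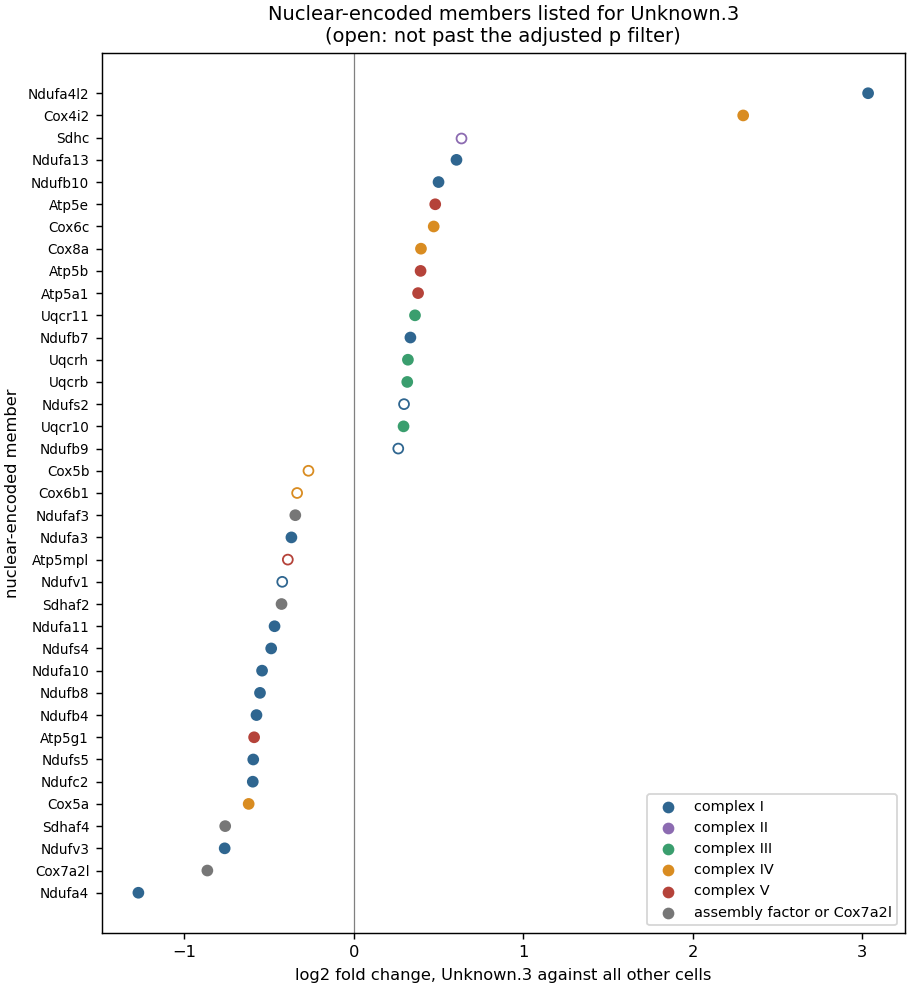
The 37 nuclear members listed in Unknown.3 ranked by the authors' log2 fold change against all other cells, coloured by complex, with open points for members not past the adjusted p filter. Ndufa4l2 at 3.03 and Cox4i2 at 2.30 stand apart from the rest, and Ndufa4 is lowest at -1.27.

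Other paralogs also had narrow listings. Cox6b2, a paralog of Cox6b1 known from testis, was higher in Unknown.5 at 0.84, in 31.6% of cells against 3.9%, and in Unknown.2 at 0.44, in 19.8% against 3.0%. Cox7a1, the form known from heart and skeletal muscle, was listed for Unknown.2 alone, at 0.26 and in 12.3% of cells against 4.9%. Among their widespread partners, Cox7a2 was lower in Unknown.2 at -0.50, while Cox6b1 at -0.36 in Unknown.5 did not pass the filter. Of the 3 genes for the complex V ring subunit, Atp5g1 and Atp5g3 were called in 11 and 9 clusters, and Atp5g2 in 1, higher in Low.UMI.Pep at 0.33. Counts of such paralogs can be split by the authors' read assignment, which is not stated.

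Most nuclear members were called in several clusters and a few in almost none. Cox5a was called in 14 clusters, 6 higher and 8 lower, and Ndufa4 in 13. At the other end, Sdhc, a membrane anchor of complex II, passed the filter nowhere, although it was listed at 0.63 in Unknown.3. Ndufs1, the largest iron-sulfur subunit of complex I, was called in 2 clusters, at -0.34 in Unknown.1 and -0.36 in Unknown.488p in the authors' deposited table. Uqcrc1, a core subunit of complex III, was higher in Low.UMI.LTMR at 0.53, LTMR at 0.41, Cold.sen at 0.30 and SST at 0.28, and lowest in Unknown.6 at -0.66. Cox4i1 was higher in Low.UMI.Pep at 0.53 and lower in Unknown.6 at -0.86, and Atp5b was lowest in Unknown.488p at -1.08.

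The genes that feed the respiratory chain moved alongside in several clusters. Of 14 electron carriers and assembly genes in the table, 12 were lower in Unknown.1, beside 28.8% of all genes, including Cycs, which is cytochrome c, at -0.79. Of 14 citrate cycle genes, 9 were lower in Unknown.1 and 10 in Unknown.488p, where 33.0% of all genes were, led in both by Mdh2. In Cold.sen 6 were higher, beside 11.0% of all genes, led by Idh3b at 0.47. Of 12 genes for carriers and pores, 7 were lower and 1 higher in Unknown.1, beside 28.8% and 18.0% of all genes. In Unknown.488p 5 were lower and 1 higher, beside 33.0% and 9.91%. Low.UMI.Nonpep had 3 higher and 1 lower, beside 10.9% and 21.0%. Low.UMI.LTMR had 2 higher and 1 lower, beside 10.9% and 20.1%, as had Low.UMI.Pep, beside 10.8% and 20.7%. Slc25a4 of this list, an exchanger of ADP and ATP, stood at -1.79 in Unknown.1 and -2.43 in Unknown.488p in the authors' deposited table. It stood at 0.79 in Low.UMI.LTMR, 0.64 in Low.UMI.Nonpep and 0.47 in Low.UMI.Pep. Of 19 glycolysis genes, 12 to 16 were lower in each Unknown cluster, beside 20.4% to 33.0% of all genes, with Gapdh at -1.93 in Unknown.6. In SST 11 of the 19 were higher and in LTMR 8, beside 12.5% of all genes in each. Cytosolic ribosomal proteins went against the nuclear respiratory genes in Unknown.1, with 67 of 82 higher, beside 18.0% of all genes. They did so too in Unknown.488p, with 46 higher, beside 9.91%, and in Unknown.6, with 16 higher, beside 7.39%. In Unknown.3, 8 were higher and 7 lower, beside 8.05% and 28.4%. In Unknown.4, 2 were higher and 12 lower, beside 5.21% and 26.4%. In Unknown.5, 57 were higher, beside 9.67% of all genes, and in Unknown.2, 63 were lower, beside 27.4%. The list of mitochondrial biogenesis and mitochondrial DNA genes had 8 members in the table and few calls, such as Ppargc1b, a coactivator of respiratory genes, higher in Cold.sen at 0.41.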

How the data were processed

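One table of cluster markers was used. For each gene and cluster it holds, per the file headers, raw and adjusted p-values and the average log2 fold change of the cluster over all other cells. It also gives the deposited fraction of cells in which the transcript was detected on either side, printed here as percent. Seurat is named in the submitters' processing notes, while aligner, build, annotation, cell filters, treatment of doublets and normalization are not given in the sources used, and a table without cells allowed no doublet call. Of its 56694 gene and cluster pairs none has a p-value above 0.01, and the adjusted p-value equalled the p-value times 32285 in all 50167 pairs checked.

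Cluster shares of cells were solved by least squares from the deposited fractions of 6853 genes differing by at least 5 percentage points, with a residual of 0.0256 points and a sum of 100.01%. Levels against all cells, or against other cells with a class of clusters left out, followed by algebra from the log2 fold changes with a pseudocount of 1. For 34 genes listed in all 20 clusters, the share-weighted levels summed to between 1.0 and 1.0001. The computations ran in pandas 2.3.3 and numpy 2.4.6 and were tested on simulated data.

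A call was a deposited adjusted p under 0.05. No test over samples was possible. The members and lists were chosen with earlier results of these data known. The genes named were all mitochondrial members, isoform families, and the largest and smallest member of each complex and cluster past the filter. Also named were those called in most and fewest clusters and up to 4 genes of each other list. Ndufs1, Sdha, Uqcrc1, Cox4i1 and Atp5b were named for complexes I to V whatever their values. Genes such as Ndufs5, Ndufv3, Ndufb8, Cox6a1 and the complex III members of Unknown.3 were added after their values were seen. Alternatives were other thresholds, structural subunits alone, unlisted members at 0, levels against all cells, and classes of clusters left out.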

Additional observations from a re-analysis of the deposited data

How the results depend on the processing

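Counts at an adjusted p under 0.001 stayed within 1.5 times the main ones in every class. With an absolute log2 fold change of at least 0.5, mitochondrial members higher in named neuron clusters came to 40 (82 without this limit) and lower to 6 (11), and nuclear members to 13 higher (118) and 1 lower (7). Under the same limit, nuclear members came to 20 higher (80) and 0 lower (1) in Low.UMI clusters and to 6 higher (21) in Unknown clusters. Where detection had to move the same way as the fold change, 0 of the 80 higher nuclear calls in Low.UMI clusters, 0 of the 7 lower nuclear calls in named neuron clusters and 0 of the 7 lower mitochondrial calls in Unknown clusters were left. With structural subunits alone, nuclear members lower in Low.UMI clusters came to 0, and the nuclear median in Unknown.3 turned to 0.26, against -0.34.

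A median that moved by less than 1 SD among the members was taken as unmoved. With unlisted members counted as 0, mitochondrial medians came to 0.35 in CGRP-n, 0.56 in LTMR, 0.31 in Non-peptidergic and 0 in Unknown.488p. Nuclear medians then came to 0.31 in Low.UMI.Pep. They came to 0 in CGRP-a, CGRP-e, CGRP-n, CGRP-z, Cold.sen, Heat.sen, LTMR, Non-peptidergic, Peptidergic.488p, Low.UMI.LTMR, Low.UMI.Nonpep, Unknown.2 and Unknown.5. The nuclear medians of SST and Unknown.3 and the mitochondrial median of Unknown.6 came to 0 as well. Their SDs among members were wide, at 0.407, 0.823 and 0.439, so the rule took them as unmoved. Against the mean of all cells, 39 of 40 medians were unmoved, and the nuclear one in CGRP-n came to 0.25. With Low.UMI cells left out, chosen after seeing the data, the mitochondrial median turned to -0.06 in CGRP-a. It came to 0.12 in CGRP-e, 0.14 in CGRP-n, 0.15 in CGRP-z, 0.27 in Cold.sen, 0.17 in Heat.sen, 0.37 in LTMR, 0.19 in Non-peptidergic, -0.87 in Peptidergic.488p and 0.11 in SST. In the Unknown clusters it came to -0.94 in Unknown.1, 0.12 in Unknown.2, 0.62 in Unknown.3 and 0.35 in Unknown.4. It was 0.11 in Unknown.5, 0.071 in Unknown.488p and, still within 1 SD, 0.045 in Unknown.6. These shifts follow from the construction of each alternative.

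No paired analysis was possible because the table has no sample columns. For the same reason no replicate was left out, and depth and cell numbers are unknown. Members missing from a cluster's list have no value, so medians over listed members lie away from 0 by construction.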
